A study of Mus musculus with 9 samples.

Results

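The genes of the Rbm, hnRNP and SR families of RNA-binding proteins were examined for m6A peaks in wild-type mouse embryonic stem cells (mESCs). The members were the protein-coding genes of mm10 whose symbol is Rbm, Hnrnp or Srsf followed by the number or letters of the family, apart from 2 hnRNP genes that were not analysed here. By this rule 65 of 21900 protein-coding genes were members, of which 36 were Rbm, 18 hnRNP and 11 SR genes. The study holds 9 libraries from wild-type, Mettl3KO and Zc3h13KO mESCs of mixed strain background, and every genotype carries the background labelled Rosa26:CRE, Bir ligase. Poly(A)-selected RNA was immunoprecipitated with a polyclonal rabbit antibody against m6A, sequenced, and compared with RNA that had not been immunoprecipitated (input). The peak lists of the 2 wild-type immunoprecipitations, replicates 1 and 2, were analysed, while those of the knockout cells and the inputs (7 libraries) were left aside. The labels do not say that the replicates came from separate cultures, and they name a single wild-type input, so both lists may rest on the same control.

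N6-methyladenosine (m6A) is the most common internal modification of mRNA. It is written in the nucleus by a complex around Mettl3 and Mettl14, mostly within a short sequence that contains GGAC, and it influences how an mRNA is spliced, translated and degraded. Rbm, hnRNP and SR proteins are among the proteins that bind the same nuclear RNA. SR proteins (Srsf) have RNA-recognition motifs and a domain rich in arginine and serine, and many of them help the spliceosome to recognise exons. hnRNP proteins coat nascent transcripts and often repress splice sites. The Rbm genes share the RNA-recognition motif and little else, and range from spliceosome components to subunits of the m6A methyltransferase complex. Many SR and hnRNP genes control their own mRNA through alternative exons that lead to its decay.

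Replicate 1 had 22531 peaks and replicate 2 had 5040, at a median fold enrichment over input of 5.39 and 6.35. The −log10 q, a measure of how unlikely a peak's reads are given the input after correction over the genome, reached 358 in replicate 1 and 54.2 in replicate 2, with medians of 28.9 and 7.54. Values of the 2 lists are therefore given side by side and not averaged. The lists hold no read counts, so the depth of the libraries is unknown, and no expression values, so the cell type could not be checked against markers. A gene with no peak may be unmethylated, weakly expressed or below the detection of that library, and these could not be told apart. The peaks in the replicate 1 list carry a sample name that does not mention wild-type cells, and the replicates follow the sample labels. A peak was assigned to a gene when it lay within 500 bp of the gene body in the RefSeq annotation of GRCm38.p6, whose build is that of mm10.

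A member peak was listed in at least 1 replicate for 35 of the 65 genes, and 30 genes (46.2%) had none. In replicate 1, 34 members (52.3%) had a peak, with an exact binomial 95% interval from 39.5% to 64.9%, beside 41.3% of all protein-coding genes. In replicate 2, 9 members (13.8%) had one, beside 16.9% of all protein-coding genes. In both replicates 8 members (12.3%, interval 5.47% to 22.8%) had one, beside 16.1%. Of the members with a peak in replicate 1, 23.5% also had one in replicate 2, beside 39.1% of all such protein-coding genes. Such intervals describe counting error alone, genes are not replicates, and no difference between lists was tested. The members' place relative to other genes in replicate 1 depended on the height of the peaks counted. When only peaks with a fold enrichment of at least 4 were counted, 23.1% of members and 30.6% of protein-coding genes had a peak, so the direction was opposite to that with every peak.

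**Figure D1:**
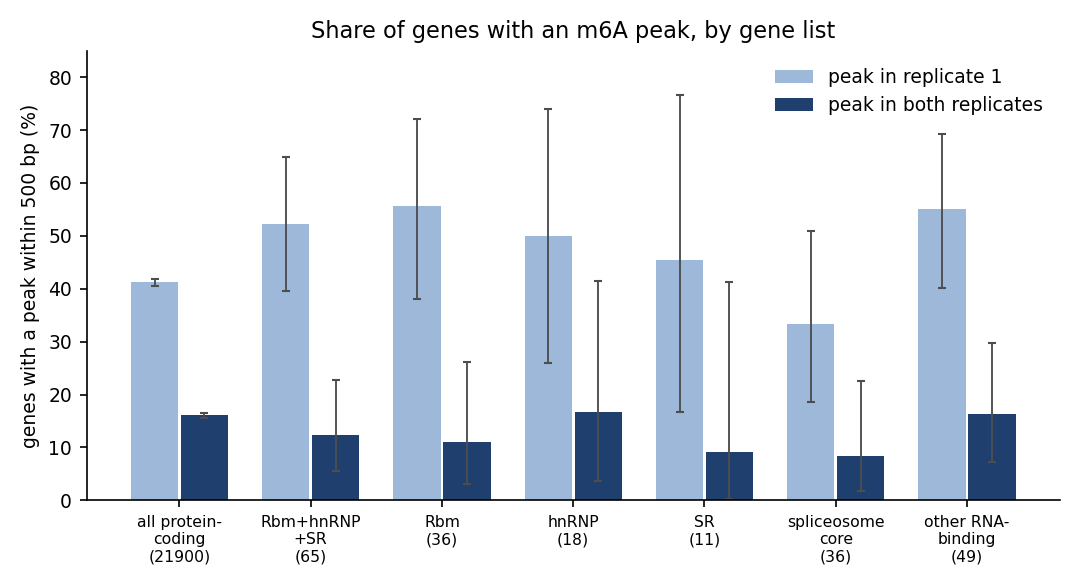
Percent of the genes of each list with an m6A peak within 500 bp, in replicate 1 (light bars) and in both wild-type replicates (dark bars), with the number of genes of each list in brackets. Whiskers are exact binomial 95% intervals for counting error. The 3 families lie between 45.5% and 55.6% in replicate 1 and between 9.09% and 16.7% in both replicates, with intervals that overlap.

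The Rbm, hnRNP and SR families had peaks at similar shares of their genes, and the counts were too small to separate them. A replicate 1 peak was found at 20 of 36 Rbm genes (55.6%, interval 38.1% to 72.1%), 9 of 18 hnRNP genes (50.0%, 26.0% to 74.0%) and 5 of 11 SR genes (45.5%, 16.7% to 76.6%). Both replicates had a peak at 4 Rbm genes (11.1%, 3.11% to 26.1%), 3 hnRNP genes (16.7%, 3.58% to 41.4%) and 1 SR gene (9.09%, 0.23% to 41.3%). The families differed more in the number of peaks for each gene. The Rbm genes held 41 of the 56 replicate 1 peaks of members, the hnRNP genes 10 and the SR genes 5. Of the genes with a replicate 1 peak, more than 1 peak was listed at 12 of 20 Rbm genes (60.0%), at 1 of 9 hnRNP genes (11.1%, Hnrnpa0) and at 0 of 5 SR genes, beside 57.4% of such protein-coding genes. Rbm genes were also longer, with a median gene body of 19194 bp against 12968 bp for hnRNP and 7290 bp for SR genes. The share of these differences that goes with length was not tested.

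The members' peaks were low in fold enrichment for their lists. The median of the highest fold enrichment of each gene in replicate 1 was 3.71 over members, 4.18 over Rbm, 3.27 over hnRNP and 2.69 over SR genes, beside 6.45 over all protein-coding genes with a peak. In replicate 2 it was 4.34 over members and 6.71 over all protein-coding genes. Peak by peak, 13 of the 56 replicate 1 peaks of members were above the median fold enrichment of the whole list, and 33 were above its median −log10 q. The members' peaks were thus low in fold more often than in −log10 q.

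**Figure D2:**
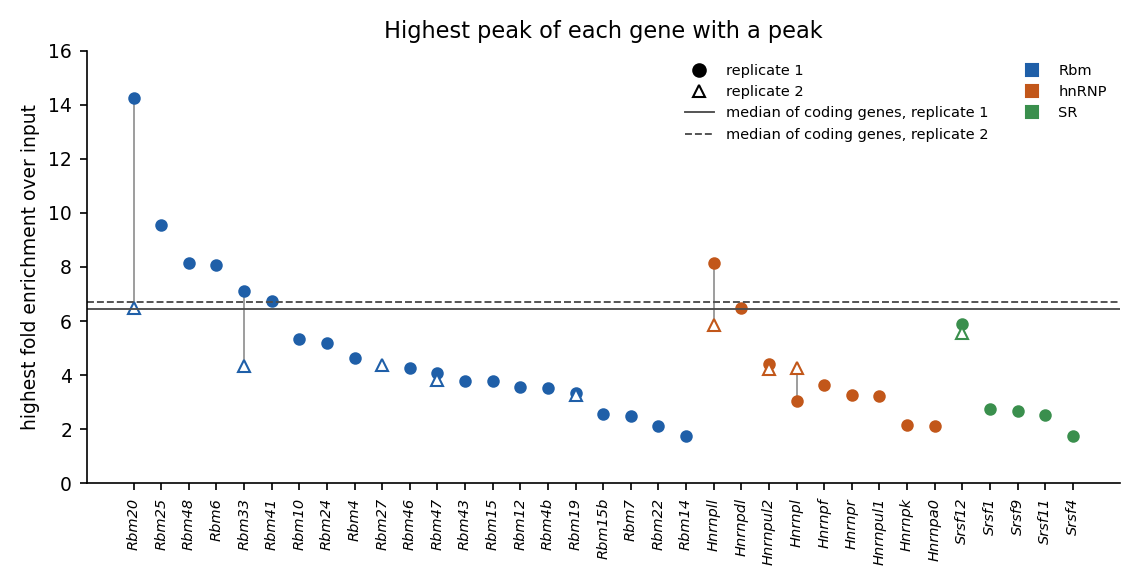
Highest fold enrichment over input (linear axis) of each of the 35 members with a peak, in replicate 1 (filled circles) and replicate 2 (open triangles), coloured by family, with a grey line joining the 2 values of a gene. Horizontal lines are the medians over all protein-coding genes with a peak, 6.45 in replicate 1 (solid) and 6.71 in replicate 2 (dashed). Most members lie below both lines, and Rbm20 is highest in each replicate.

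The genes with a peak in both replicates were Rbm20, Rbm33, Rbm47, Rbm19, Hnrnpll, Hnrnpl, Hnrnpul2 and Srsf12. At each of them a peak of replicate 1 overlapped one of replicate 2, in 9 pairs. Such an overlap was also found at 3414 of the 3531 protein-coding genes with a peak in both replicates. The summits of the members' pairs lay 3 to 40 bp apart in 8 pairs and 610 bp apart in the other, at Hnrnpl. Summit distances over all protein-coding genes were not computed. The highest −log10 q was lower in replicate 2 at all 8 genes, and the highest fold enrichment was lower at 7, Hnrnpl being the exception. Hnrnpll, Hnrnpul2, Rbm19 and Rbm33 still had a peak in both lists when replicate 1 was cut to the 5040 peaks of highest −log10 q, and of these Hnrnpll and Rbm33 also passed a −log10 q of at least 5 and a fold enrichment of at least 4.

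Rbm20, a splicing factor of heart muscle that acts on titin mRNA, had the highest peak of any member in both lists. Its 4 peaks of replicate 1 reached fold enrichments of 14.2, 13.6, 7.77 and 3.28, and the single peak of replicate 2 reached 6.47. The highest ran over chr19:53813110-53814183 in replicate 1, at a −log10 q of 35.7, and the replicate 2 peak had its summit 3 bp away at a −log10 q of 6.43. The other 3 peaks of replicate 1 had no counterpart in replicate 2. The fold enrichment of the highest peak exceeded that of 93.6% of the replicate 1 list, while its −log10 q exceeded that of 57.8%.

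Rbm33, which binds RNA and has been linked to the m6A demethylase Alkbh5, had 4 peaks in replicate 1 and 1 in replicate 2. Along the transcript the fold enrichments of the 4 were 7.11, 5.46, 6.76 and 2.65, at a −log10 q of 136, 137, 118 and 25.7. The replicate 2 peak matched the second of these at chr5:28393790-28394601, at 4.34-fold enrichment, a −log10 q of 7.96 and a summit 40 bp away. This −log10 q was the highest of any member in replicate 2. All 4 summits lay between 71.0% and 94.5% of the gene body, counted from its 5′ end.

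Rbm47, a cofactor of C-to-U RNA editing, had 3 peaks in replicate 1, all with summits between 92.4% and 97.9% of its gene body. The highest, at chr5:66026612-66027171, was enriched 4.08-fold (−log10 q 50.3), and the peak of replicate 2 was enriched 3.81-fold (−log10 q 3.43). Rbm19, a nucleolar protein that takes part in ribosomal RNA processing, had 1 peak in each list at chr5:120197759-120198830. It was enriched 3.35-fold in replicate 1 and 3.27-fold in replicate 2, at a −log10 q of 102 and 5.90, and its summit lay 765 bp before the 3′ end of the gene body in replicate 1 and 772 bp in replicate 2. Another replicate 1 peak, enriched 4.11-fold, lay 941 bp outside Rbm19 and so was not assigned to it.

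Both genes of the hnRNP L type had a peak in both replicates. Hnrnpl encodes a protein that binds CA-rich RNA, and Hnrnpll a relative that regulates the splicing of CD45 in lymphocytes. The peak at Hnrnpll, at chr17:80047930-80048599 in replicate 1, was enriched 8.15-fold, against 5.84-fold in replicate 2, at a −log10 q of 159 and 6.73 and with summits 9 bp apart. At Hnrnpl a replicate 1 peak of 1854 bp at chr7:28815485-28817338, enriched 3.04-fold, covered 2 peaks of replicate 2 enriched 4.25-fold and 3.65-fold. Its summit was 9 bp from that of the lower replicate 2 peak and 610 bp from that of the higher one. Wide peaks of replicate 1 can thus hold several peaks of replicate 2.

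Hnrnpul2, which encodes a relative of the nuclear scaffold protein Hnrnpu, had a peak of 1400 bp in replicate 1 and 353 bp in replicate 2, enriched 4.43-fold and 4.24-fold, with summits 3 bp apart. Both peaks also lay within 500 bp of Ttc9c, so they cannot be given to 1 gene. Srsf12, an atypical SR protein, was the only SR gene with a peak in both replicates. Its peak was enriched 5.91-fold in replicate 1 and 5.55-fold in replicate 2, at a −log10 q of 31.6 and 4.88, with summits 39 bp apart, at 90.8% and 90.9% of the gene body from the 5′ end. The replicate 1 peak ran over chr4:33230807-33231277. Rbm27, a protein of nuclear RNA surveillance, had a peak in replicate 2 only, enriched 4.38-fold (−log10 q 3.52).

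Members that belong to the m6A machinery itself had wide peaks in replicate 1 and none in replicate 2. Only 16.9% of all protein-coding genes had a peak in replicate 2, so its absence at these genes does not set them apart. Rbm15 and Rbm15b encode subunits that bring the methyltransferase complex to RNA, Xist among them. The peak at Rbm15b spanned 2797 bp at chr9:106884237-106887033, covered 45.5% of the gene body, was wider than 99.5% of the replicate 1 peaks, and was enriched 2.58-fold (−log10 q 74.9). Rbm15 had a peak of 2094 bp at chr3:107330273-107332366, enriched 3.50-fold (−log10 q 103). A neighbouring peak of 431 bp at Rbm15 was enriched 3.77-fold (−log10 q 51.6). The peaks of 2797 and 2094 bp were the only member peaks of 2000 bp or more. That width was reached by 1.89% of replicate 1 peaks and 0.238% of replicate 2 peaks.

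**Figure D3:**
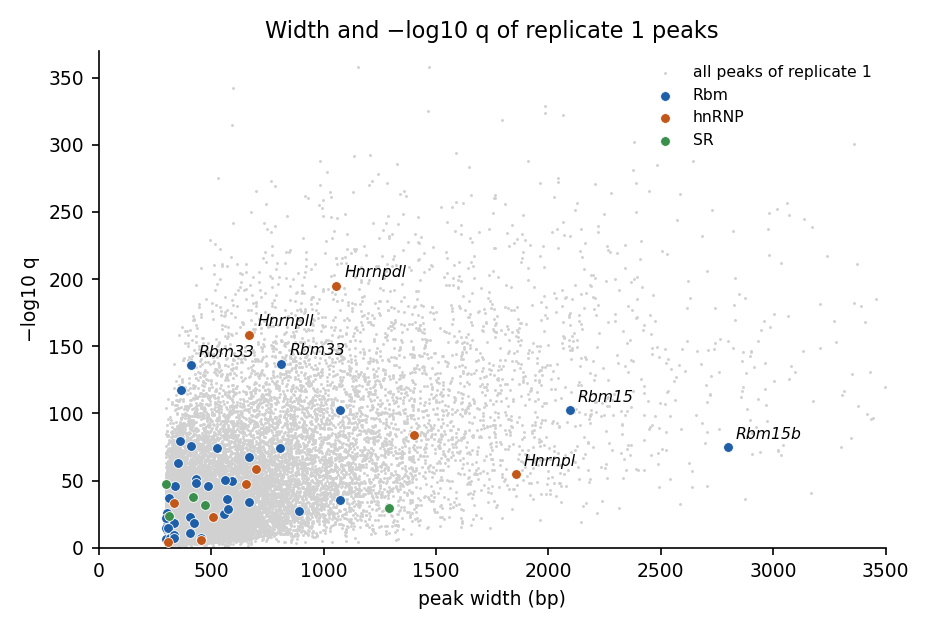
Width in bp (x axis) and −log10 q (y axis) of the replicate 1 peaks, with all peaks in grey and those of Rbm, hnRNP and SR genes in colour. The 26 peaks wider than 3500 bp are not drawn. Rbm15b and Rbm15 have the widest member peaks, 2797 and 2094 bp, and Hnrnpdl has the highest −log10 q, 195.

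Among the Rbm genes of the spliceosome and of splice-site choice, 7 of 12 had a replicate 1 peak and 0 had one in replicate 2. Over all protein-coding genes the shares were 41.3% and 16.9%. A group of 12 genes is small for such a comparison, which was not tested. The 7 genes with a replicate 1 peak held 13 peaks. Rbm25, which regulates splice sites of apoptosis genes, had 3 peaks, enriched 9.54-fold, 3.96-fold and 2.25-fold. The summit of the highest lay at -106 bp from the start of the gene body, where a minus sign means before it, and its −log10 q was 74.5. Rbm6 had peaks of 8.07-fold and 3.56-fold, and its relative Rbm10 a single one of 5.32-fold. The third relative, Rbm5, had no peak in either list. Rbm22, a component of the catalytic spliceosome, had 1 peak of 2.11-fold. The neighbouring paralogues Rbm4 and Rbm4b had 2 peaks each, enriched 4.65-fold and 2.69-fold at Rbm4 and 3.53-fold and 3.46-fold at Rbm4b, all of them also within the overlapping gene Gm21992. How reads that match both paralogues were treated is not stated in the sources used, so the split of the signal between Rbm4 and Rbm4b is uncertain.

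Other Rbm genes with a peak in replicate 1 came from several groups. Rbm41, a relative of a minor spliceosome protein, had 3 peaks in replicate 1, enriched 6.74-fold, 4.98-fold and 3.03-fold. Rbm12 had 4, from 1.88-fold to 3.56-fold, all also within 500 bp of Cpne1. Rbm7, a subunit of a complex that hands nuclear RNA to the exosome, had 2 peaks of 2.48-fold and 1.63-fold, and the former lay 102 bp outside the gene body and also near Gm5617. Rbm24, a regulator of muscle splicing, had 1 peak of 5.19-fold, and Rbm46, a germ cell protein, 1 of 4.27-fold. Rbm43 had 1 of 3.79-fold and Rbm14, a paraspeckle protein, 1 of 1.76-fold that also lies in Gm21992. No peak was listed for Rbm3, the cold-induced protein, for Rbm28 and Rbm34, which like Rbm19 are nucleolar, or for Rbm5, Rbm8a, Rbm11, Rbm17, Rbm18, Rbm26, Rbm31y, Rbm38, Rbm39, Rbm42, Rbm44 and Rbm45.

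Outside the L and U types, hnRNP genes had a peak in replicate 1 at 5 of 13 genes, beside 41.3% of all protein-coding genes. The L and U types held every hnRNP gene with a replicate 2 peak, so the 0 of the remaining genes follows from this grouping. The 5 genes with a replicate 1 peak were Hnrnpdl, Hnrnpf, Hnrnpr, Hnrnpk and Hnrnpa0. Hnrnpdl, a relative of the AU-rich element binding protein Hnrnpd, had the highest −log10 q of any member, 195, above 98.7% of the list, in a peak of 1056 bp at chr5:100038847-100039902 enriched 6.49-fold. The peak also lies within 500 bp of Enoph1, and replicate 2 had no peak there. Hnrnpf, which binds G-rich RNA, had a peak of 3.64-fold, Hnrnpr one of 3.27-fold and the U-type gene Hnrnpul1 one of 3.22-fold. Hnrnpa0 had 2 peaks of 2.11-fold and 1.82-fold. Hnrnpk, which binds C-rich RNA, had one of 2.15-fold at a −log10 q of 4.55, the lowest of any member in replicate 1, in a peak also near Rmi1. No peak was listed for Hnrnpa1, Hnrnpa3, Hnrnpab, Hnrnpd, Hnrnph1, Hnrnph2, Hnrnph3, Hnrnpm and Hnrnpu.

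At 7 members a peak of replicate 1 reached an available window from 250 bases before to 50 bases after a start: Hnrnpa0, Hnrnpdl, Hnrnpf, Hnrnpr, Hnrnpul1, Rbm15b and Rbm7. In replicate 2 this was so for 0 members. A window was available for 57 members, and the windows do not cover every start of a gene body. The Rbm25 peak with its summit at -106 bp from the start of the gene body reached no available window. The share of all protein-coding genes with such a peak was not computed, so these counts have no background. The windows, from RefSeq on GRCm38.p6, were searched for GGAC, the letters at the core of the preferred methylation site, on the strand of the gene and on the opposite strand. Of 21263 windows of protein-coding genes, 68% held GGAC on the strand of the gene and 68.9% on the opposite strand, at a median of 1, and of 73 windows of 57 members, 55 (75.3%) did. The window of Hnrnpdl held it 6 times, a number reached by 0.362% of windows, and the summit of its peak lay at -1 bp from that start. This summit is 713 bp inside the gene body, which begins at an upstream start. The window of Hnrnpf held it 2 times, with the summit at -25 bp from the start, and that of Hnrnpa0 2 times, with the summit 275 bp after it. The windows of Hnrnpr, Hnrnpul1 and Rbm15b that the peaks reached held none on the strand of the gene. That of Rbm7 held 1, at -4 from the start and outside the peak. Some of the GGAC inside the peaks are printed as examples, and the others are not. Stretches of 30 bases show these letters, 5′ to 3′ on the strand of the gene, with GGAC in capitals. The number is the position of the first G from the start. The stretch of Hnrnpa0 lies before its gene body.
Hnrnpdl at -104, chr5:100039310-100039339, minus strand: gctctgcactaggGGACtgagggcgcagca
Hnrnpdl at -36, chr5:100039242-100039271, minus strand: ctcaaggcaagagGGACtgtggccctgcca
Hnrnpf at 6, chr6:117917286-117917315, plus strand: caggccccggggcGGACcttcctgcccggc
Hnrnpa0 at -89, chr13:58128629-58128658, minus strand: ggcgcggtgggcgGGACcaaggcgagcggc
The peaks carry no strand and a match of 4 letters describes the sequence and not a methylated site. No RefSeq window was found for Hnrnpll, Hnrnpul2, Rbm20, Rbm22, Rbm27, Rbm3, Rbm44 and Rbm8a.

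Many SR genes encode splicing activators, Srsf1 being the best studied. Neither list had a peak at 54.5% of the SR genes, beside 57.9% of all protein-coding genes, and most of the other SR genes had peaks low in fold enrichment. Apart from Srsf12, a replicate 1 peak was listed at Srsf1 (2.75-fold), Srsf9 (2.69-fold), Srsf11 (2.51-fold) and Srsf4 (1.76-fold), and replicate 2 had none of them. Their −log10 q values were 47.5, 37.9, 23.9 and 29.6. The peak of Srsf9 lay 438 bp outside its gene body and also near Gatc, and that of Srsf4, 1290 bp wide, also lay near Gm12992. Without peaks near another gene, 3 SR genes had a peak in replicate 1. No peak was listed for Srsf2, Srsf3, Srsf5, Srsf6, Srsf7 and Srsf10. Gene bodies of SR genes were short, and in replicate 1 a peak was found at 26.8% of protein-coding genes of at most 10 kb, 44.0% of those of 10 to 30 kb and 54.2% of longer ones. The members followed the same order, with 8 of 21 (38.1%), 14 of 26 (53.8%) and 12 of 18 (66.7%). Among SR genes a replicate 1 peak was found at 2 of 6 (33.3%) up to 10 kb and 3 of 5 (60%) of 10 to 30 kb. In both replicates a peak was found at 0, 3 and 5 members of these lengths (0%, 11.5% and 27.8%), beside 10.9%, 18.0% and 20.1% of protein-coding genes.

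Along the gene body, most hnRNP summits of replicate 1 with known strand lay towards the 5′ end. Those of the Rbm and SR genes lay more often towards the 3′ end. Strand was available for 57 of the 65 members, from the RefSeq table of start windows. The hnRNP genes had 10 peaks in replicate 1, of which 8 had strand. Of these 8 hnRNP summits, 5 (62.5%) lay in the first 20% of the gene body and 0 in the last 20%. The 5 were those of Hnrnpr, Hnrnpul1, Hnrnpk, Hnrnpdl and one of Hnrnpa0. The peaks at Hnrnpdl and Hnrnpk also lay within 500 bp of Enoph1 and Rmi1, so they cannot be given to 1 gene. Of 36 Rbm summits, 6 (16.7%) lay in the first 20% and 15 (41.7%) in the last 20%. Of 5 SR summits, 1 lay in the first 20%, that of Srsf1, and 3 in the last 20%, those of Srsf12, Srsf4 and Srsf9, the last of them beyond the 3′ end. Summits before the 5′ end, as at Rbm7 and Rbm25, were counted with the first 20%. Over the peaks of all protein-coding genes the shares were 18.1% and 45.5%. Each of these 5 hnRNP peaks was absent from replicate 2, where both oriented hnRNP summits, those of Hnrnpl, lay at 57.8% and 62.3% of the gene body. Introns count in these positions, and exons, stop codons and untranslated regions were not used here. Of all replicate 1 summits of members, 23.2% lay at most 1000 bp from an end of the gene body, beside 25.5% over all protein-coding genes, and in replicate 2 the shares were 20% and 32.5%. The difference between families rests on 5 hnRNP genes and was not tested.

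**Figure D4:**
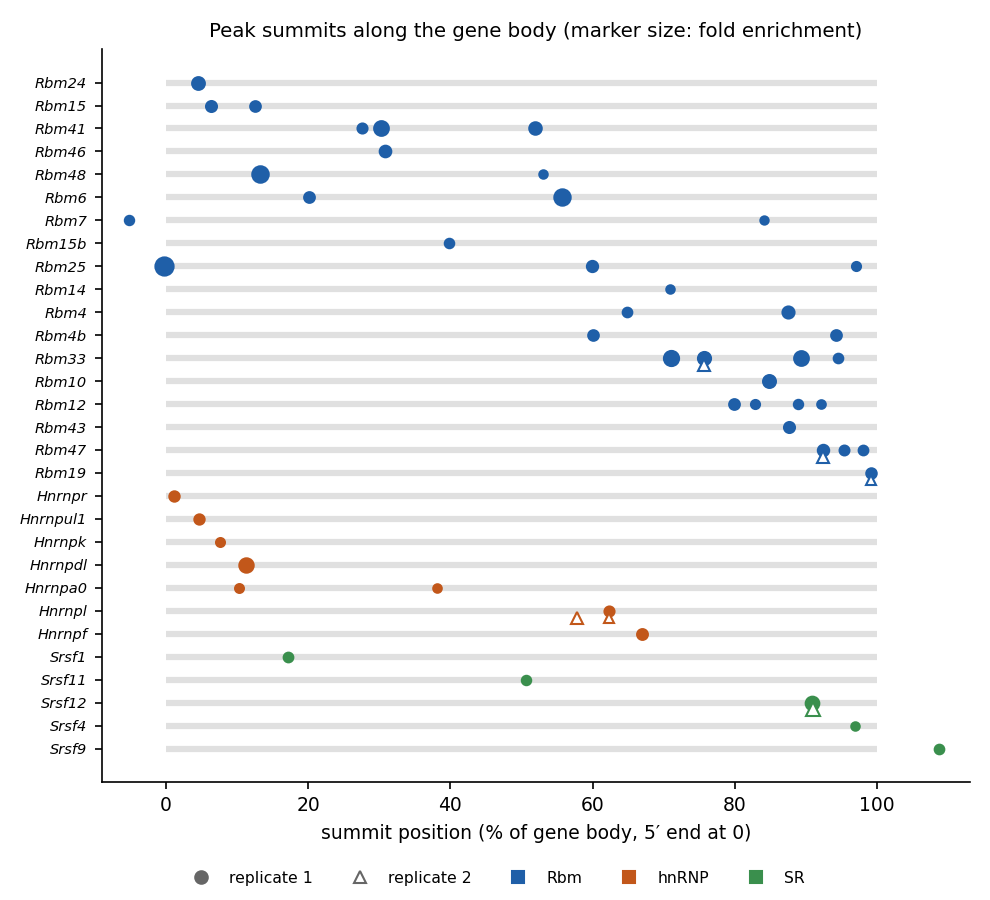
Position of each peak summit along the gene body of its gene, in percent from the 5′ end, for members with known strand and a replicate 1 peak. Filled circles are replicate 1 and open triangles replicate 2, drawn larger for a higher fold enrichment, and grey bars are the gene bodies. Of 8 hnRNP summits in replicate 1, 5 lie in the first 20%, against 6 of 36 Rbm summits.

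Genes with related functions gave a range around the members. Of 36 spliceosome core genes (Snrp, Sf3a, Sf3b, U2af and Prpf), 12 (33.3%, interval 18.6% to 51.0%) had a replicate 1 peak and 3 (8.33%) had one in both replicates, with a median highest fold enrichment of 2.61 in replicate 1. Of 49 other RNA-binding regulators, such as the Ptbp, Mbnl, Celf and Elavl genes, 27 (55.1%, 40.2% to 69.3%) had a replicate 1 peak and 8 (16.3%) had one in both, with a median of 4.40. The members, at 52.3%, 12.3% and 3.71, lay between these lists in these 3 measures, and the intervals of the shares in replicate 1 overlapped. The lists were not matched for length. The median gene body was 14113 bp for members, 14400 bp for the core and 40360 bp for the other regulators. In replicate 2 the median highest fold enrichment of the members, 4.34, was below that of the 3 core genes with a peak there, 7.05, and of the 9 other regulators, 7.14. The share of replicate 1 genes that also had a peak in replicate 2 was 23.5% for members, 25% for the core and 29.6% for the other regulators.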

How the data were processed

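For the 2 wild-type immunoprecipitations, the authors called peaks of each against input with MACS2 at default parameters. The submitters' processing notes also name Bowtie, SAMtools and mm10, without versions. RNA on the beads was digested with RNase T1. The sources used here do not state the input used for each replicate or the treatment of duplicate, multiply matching and stranded reads. The deposited lists give a fold enrichment over input (a ratio), a −log10 p-value, a −log10 q-value, a summit and a score for every peak, and the score was not used. Peaks were joined to RefSeq gene bodies of GRCm38.p6, and start windows and strand came from the RefSeq table of that build. Exons, protein and genome sequence were not used here. Shares have exact binomial 95% intervals. With 1 group there was no comparison of samples and no test. Overlaps were tested on simulated data. The members and lists were chosen with earlier results of these data known. Genes are named if they had a peak in both replicates, were Rbm15, Rbm15b or SR genes, or were among the 10 highest in fold enrichment or in number of peaks in replicate 1. The values of 1 of these genes are not reported here. Other members are named by role, and Hnrnpa0, Hnrnpk, Hnrnpr, Hnrnpul1 and Hnrnpf for the place of their peaks, after their values were seen. Alternatives were other thresholds, distances, overlaps and list lengths. Scripts ran in Python 3.11.15 with scipy 1.17.1, pandas 2.3.3 and numpy 2.4.6, and plots in matplotlib 3.10.9.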

Additional observations from a re-analysis of the deposited data

How the results depend on the processing

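Of 94 values recomputed for 14 summaries, 68 stayed within limits and 26 did not. The limits were 1.5 times for a count, 1 SD of the replicates for a median fold enrichment, and the exact binomial 95% interval of the reported value for a percent of peaks, which is wide for the 10 peaks of replicate 2. Counting peaks of 4-fold enrichment or more, the members with a peak were 15 in replicate 1 and 5 in both, the Rbm genes 11 and 2, and the hnRNP and SR genes 3 and 1 in replicate 1. With replicate 1 cut to the 5040 peaks of highest −log10 q, the members were 12 in replicate 1 and 4 in both, the Rbm genes 9 and 2, the hnRNP genes 3 in replicate 1, and the SR genes 0 and 0. At a −log10 q of at least 5, 5 members had a peak in replicate 2, 5 in both, and 0 SR genes in both. The shares of all protein-coding genes fell too. In replicate 1, 23.1% of members and 30.6% of protein-coding genes had a peak of 4-fold or more. With the cut list these were 18.5% and 17.3%. In both replicates they were 7.69% and 11.6% at 4-fold or more, and 6.15% and 10.7% with the cut list. At that −log10 q they were 7.69% and 12.8% in both replicates. Without peaks near another gene, 3 SR genes had a replicate 1 peak. Leaving out either replicate gave 9 to 34 members, 5 to 20 Rbm genes, 3 to 9 hnRNP genes and 1 to 5 SR genes in place of those with a peak in both, the higher value being without replicate 2. Of the members' replicate 2 peaks, 90% overlapped a replicate 1 peak, beside 92.1% of those of all protein-coding genes. The members' share was 50% when the overlap had to be 50% of both peaks and 100% with that −log10 q threshold. It was 71.4% for peaks of 4-fold or more and 40% after replicate 1 was cut in length. The shares over all protein-coding genes under these alternatives were not computed. Of the members' replicate 1 summits, 23.2% lay within 1000 bp of an end of the gene body, 8.93% within 500 bp and 42.9% within 2000 bp, and 15% within 1000 bp without peaks near another gene. In replicate 2 the share fell from 20% to 10% within 500 bp and to 11.1% without peaks near another gene. The differing list lengths limit every statement on both replicates. No paired analysis was possible because a single group of 2 samples was analysed.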
